A study of Homo sapiens with 6 samples.

Results

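The unfolded protein response is the programme that a cell starts when unfolded proteins build up in the endoplasmic reticulum (ER). Sensors in the ER membrane act through 3 transcription factors, ATF6, the spliced form of XBP1 and ATF4, which turn on chaperones, enzymes that fold proteins, the machinery that removes misfolded proteins and, under lasting stress, the death-linked factor DDIT3. At many of these promoters ATF6 or XBP1 binds next to NF-Y, a trimeric factor that recognises the CCAAT box, and the joint site is named the ER stress response element (ERSE). Liver cells secrete large amounts of protein and keep this machinery active.

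Accessibility at 10 genes of this response was followed with and without inhibition of menin in HLF, a human line established from liver cancer. The genes, out of 20007 protein-coding genes in the annotation, were chosen by name: HSPA5, XBP1, DDIT3, HSP90B1, PDIA4, CALR, HERPUD1, SEL1L, ATF4 and ATF6. For each gene, all peaks within 1 kb of an annotated start site, in the gene body or within 5 kb of the gene were taken, which gave 46 sites out of 166021 in the series. ATAC-seq, in which Tn5 transposase tags DNA not shielded by nucleosomes, was run on 3 libraries of cells given DMSO, the vehicle, and 3 of cells given 5 μM SNDX-5613 (revumenib), which blocks binding of menin to MLL1. The labels name no genetic change in either group, and they put all 6 libraries in batch 1 with a treatment of 24 h. A longer exposure is described by the study for this assay, so the duration is uncertain. The study says of its experiments in general that a replicate was 1 dish of cells divided between treatment and control, while the labels do not say this of these 6 libraries. On that account p-values measure the spread between dishes of 1 line.

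The lists held 88026 to 113675 peak regions in 5 libraries and 40568 in SNDX-5613 replicate 3, whose depth, read from the background pileup, was 16.2% of the median of the other 5. Each result below is therefore also given at an equal number of regions or without that library where it matters. Among liver genes, ALB, APOA1 and HNF4A had a promoter peak in 0 of 6 libraries, SERPINA1 in 2, and AFP and TTR in the 5 deeper libraries. The epithelial keratins KRT8 and KRT18 and the mesenchymal VIM had one in all 6. The liver label of the line was thus not matched by open promoters at several defining hepatocyte genes.

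The label of the gene set, genes with NF-Y boxes, was checked on sequence. The window from 250 bases before to 50 after the RefSeq start (GRCh38.p14) was available for all 10 genes and searched on both strands. The CCAAT box, spelled CCAAT, was found in 8 of the 10 windows, and each of these 8 held at least 2. HSPA5, HSP90B1 and SEL1L held 5 boxes each, CALR 4, PDIA4 3, and XBP1, DDIT3 and HERPUD1 held 2 each. Among 15345 protein-coding promoters of the same length, 36.6% held a box and 12.8% held at least 2. ATF4 and ATF6 held 0 in this window, so that the label was not met there for these 2 genes. The ERSE was searched as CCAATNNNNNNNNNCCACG, a CCAAT box followed after 9 bases by CCACG, and the related ERSE-II as ATTGGNCCACG, where the box lies on the opposite strand. The ERSE matched in 4 members, HSPA5, XBP1, HSP90B1 and CALR, against 20 of 15345 promoters (0.130%), and HSP90B1 held 2 copies. ERSE-II matched in HERPUD1, against 13 promoters (0.0847%). These letters allow no mismatch, so elements that differ by a base were not counted. The set was named for its NF-Y boxes, and the ERSE holds such a box. The shares of other promoters are therefore given for scale, here and below, and do not test an enrichment.

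The matched elements are printed because the NF-Y box and the CCACG read by ATF6 and XBP1 can be seen in each. Capitals mark these letters, and each is read 5′ to 3′ on the strand that carries the match.
HSPA5 (chr9:125241391-125241409, minus strand): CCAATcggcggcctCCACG
XBP1 (chr22:28800603-28800621, minus strand): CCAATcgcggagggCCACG
HSP90B1 (chr12:103930216-103930234, plus strand): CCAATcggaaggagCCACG
HSP90B1 (chr12:103930321-103930339, minus strand): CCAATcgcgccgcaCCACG
CALR (chr19:12938384-12938402, minus strand): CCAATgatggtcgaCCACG
HERPUD1 (chr16:56932025-56932035, plus strand): ATTGGgCCACG

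Around these elements, the upstream sequence is printed for 7 genes on the coding strand, ending at or before the RefSeq start, with CCAAT boxes of either strand in capitals. XBP1 and HERPUD1 are shown because their summits lay on or beside the element, HSPA5, CALR and SEL1L because they carried the most boxes of the printed genes, DDIT3 because it stood apart in rank, and ATF4 because its boxes lay farther upstream.
HSPA5 (chr9:125241384-125241593, minus strand): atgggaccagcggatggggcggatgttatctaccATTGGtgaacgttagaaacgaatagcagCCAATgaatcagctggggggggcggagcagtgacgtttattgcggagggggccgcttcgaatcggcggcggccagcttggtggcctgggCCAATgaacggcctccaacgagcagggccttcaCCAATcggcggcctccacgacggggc
XBP1 (chr22:28800600-28800819, minus strand): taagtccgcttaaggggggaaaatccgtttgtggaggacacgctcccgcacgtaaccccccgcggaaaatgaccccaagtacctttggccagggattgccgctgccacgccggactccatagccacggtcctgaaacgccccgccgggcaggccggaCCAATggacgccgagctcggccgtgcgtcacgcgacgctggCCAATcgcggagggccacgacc
DDIT3 (chr12:57520519-57520704, minus strand): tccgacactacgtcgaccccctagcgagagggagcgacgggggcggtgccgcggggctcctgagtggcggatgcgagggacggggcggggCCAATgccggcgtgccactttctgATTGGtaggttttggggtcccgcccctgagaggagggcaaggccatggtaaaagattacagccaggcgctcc
CALR (chr19:12938359-12938608, plus strand): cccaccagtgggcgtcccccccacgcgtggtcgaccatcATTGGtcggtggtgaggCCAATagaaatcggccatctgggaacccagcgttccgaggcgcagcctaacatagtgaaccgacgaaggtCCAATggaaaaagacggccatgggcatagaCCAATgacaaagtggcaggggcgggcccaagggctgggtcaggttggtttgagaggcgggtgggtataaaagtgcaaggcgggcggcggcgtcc
HERPUD1 (chr16:56931892-56932141, plus strand): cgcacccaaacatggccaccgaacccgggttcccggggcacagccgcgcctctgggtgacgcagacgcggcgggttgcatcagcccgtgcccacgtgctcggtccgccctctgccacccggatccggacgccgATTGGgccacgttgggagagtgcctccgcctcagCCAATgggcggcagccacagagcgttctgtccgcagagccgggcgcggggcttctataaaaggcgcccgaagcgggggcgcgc
SEL1L (chr14:81533854-81534103, minus strand): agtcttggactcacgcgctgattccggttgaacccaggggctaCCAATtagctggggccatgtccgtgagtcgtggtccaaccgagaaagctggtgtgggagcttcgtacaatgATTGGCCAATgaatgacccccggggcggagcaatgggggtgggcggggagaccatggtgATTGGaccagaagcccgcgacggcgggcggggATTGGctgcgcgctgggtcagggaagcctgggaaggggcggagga
ATF4 (chr22:39520076-39520177, plus strand): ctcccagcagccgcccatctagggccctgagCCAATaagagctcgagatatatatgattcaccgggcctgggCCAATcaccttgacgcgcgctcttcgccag

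SEL1L carried a pair of boxes back to back on opposite strands, seen in its sequence as a single run of capitals. In ATF4, the 2 boxes centred at -453 and -412 bp from the RefSeq start, beyond the window that had shown 0. With a window of 100 bp on either side of the strongest summit, 9 of the 10 members held at least 2, against 13.6% of the 12790 genes with a promoter peak in all 6 libraries, and ATF6 again held 0. Further elements of this response were searched on both strands in the RefSeq window. The UPRE, spelled TGACGTGG, and the CRE, spelled TGACGTCA, were found in 0 members, against 0.821% and 2.76% of promoters. TGATGNAA, the core of sites bound by ATF4, was found in HERPUD1 alone among the members, against 2.41% of promoters. Among 39 other genes of the response with a RefSeq window, 28 (71.8%) held a CCAAT box and 4 held an ERSE. A match describes letters in a window and does not show that a factor was bound.

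Position was asked from the summit, the base of highest pileup. At the 8 members with boxes in the RefSeq window, the median summit of the 6 libraries lay 1 to 36 bp from the centre of the nearest box, and all 8 were within 50 bp. Of 3881 genes with at least 1 box and a promoter peak in all 6 libraries, 53.7% had a summit within 50 bp, and of 1484 genes with at least 2 boxes, 74.4%. These shares include genes whose summit lay at another start, up to 1116364 bp from the box. They are also not matched for number of boxes. At least 3 were held by 5 of 10 members, against 5.26% of promoters with a peak in all 6 libraries. XBP1 showed the tightest match. Its summits lay at -60, -53 and -51 bp from the RefSeq start in DMSO and at -50, -45 and -51 bp in SNDX-5613 replicates 1, 2 and 3, 0 to 10 bp from a box. The ERSE of XBP1 spanned -52 to -34 bp, so summits of both groups fell at or near its CCAAT end. HERPUD1 summits lay at -124 to -111 bp and its ERSE-II at -117 to -107 bp, with the nearest box 2 to 9 bp away.

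**Figure D1:**
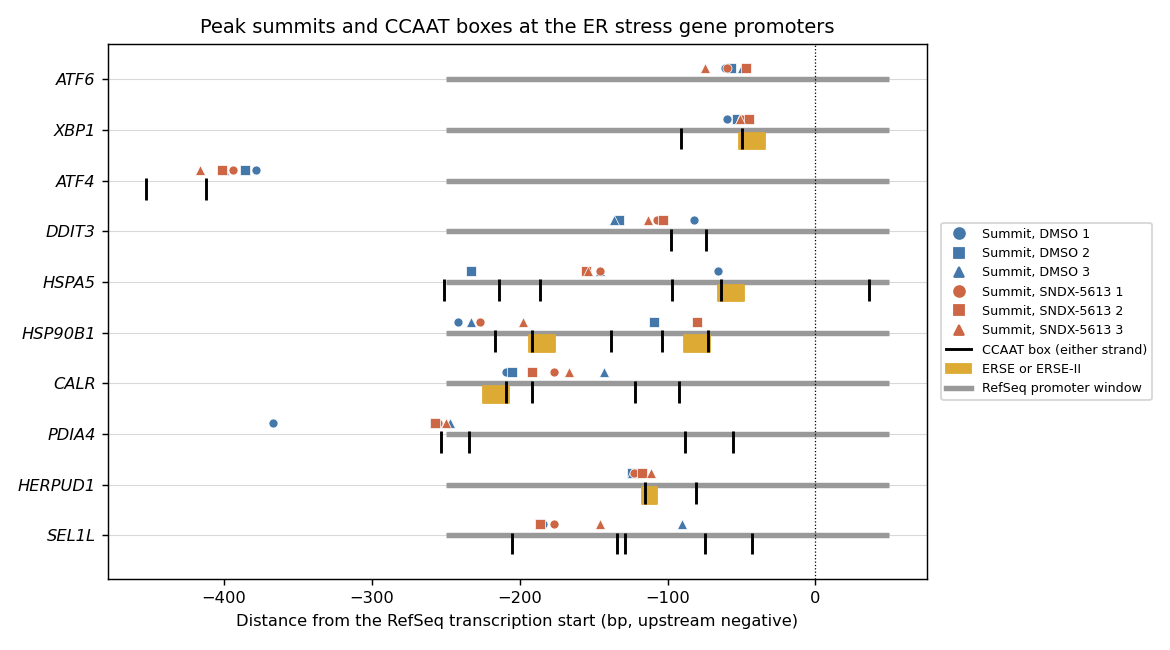
Summits of the promoter peaks in each of 6 libraries (coloured symbols) and centres of CCAAT boxes on either strand (black ticks) along the distance in bp from the RefSeq start, upstream negative, with ERSE or ERSE-II matches as yellow blocks; ticks outside the grey RefSeq window are boxes within 100 bp of the strongest summit. Summits of XBP1 and HERPUD1 sit on or beside their element in both groups, those of ATF4 lie at -416 to -378 bp near 2 boxes outside the window, and ATF6 has no box.

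The position of the summit did not separate the groups. Distances from the summit to the nearest GENCODE start overlapped between groups at all 10 members, where 10.8% of the 12790 genes had groups that did not overlap. At HERPUD1 the 6 summits lay within 13 bp of each other and at XBP1 within 15 bp. HSPA5, with 5 boxes in its window, had the widest range, 167 bp, where DMSO replicates 1, 2 and 3 had summits at -27, -194 and -107 bp, while those of SNDX-5613 lay at -107, -116 and -115 bp. The median range over all genes was 39 bp. ATF4 and HSP90B1 had the widest regions of the members. That of ATF4 was 1390 to 1592 bp wide with 4 or 5 summits in each library, and that of HSP90B1 1103 to 1416 bp with 3 or 4, where the median promoter region of all genes was 456 to 791 bp.

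Whether treatment changed accessibility was asked first from rank. Within each library, the −log10 p that the authors' peak caller gave each region was turned into a percentile, so 100 is the strongest region of that library. A promoter peak was found for all 10 members in all 6 libraries, as it was for 63.9% of protein-coding genes. The members lay high in each list. Their median percentile ran from 92.1 in SNDX-5613 replicate 3 to 97.3 in DMSO replicate 2, while the median of all genes with a promoter peak in all 6 was 92.8 to 94.4 in the 5 deeper libraries and 83.6 in SNDX-5613 replicate 3.

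Transcription factors of the response are given first. ATF6, the membrane-bound factor released by cleavage under stress, had the lowest promoter percentile of the members. It reached 85.3, 90.4 and 87.4 in DMSO and 87.9, 91.3 and 70.4 in SNDX-5613 libraries, so the groups overlapped and only the shallow library was low. Its mean was 87.7 ± 2.58 in DMSO and 83.2 ± 11.2 in SNDX-5613 (SD, n = 3 each, exact two-sided permutation p = 0.9). The neighbouring transcript ATF6-DT has a start within 1 kb of the promoter peak of ATF6. At equal numbers of regions, the ATF6 values were 68.0, 73.1 and 70.2 in DMSO and 67.9, 79.3 and 70.4 in SNDX-5613, without the low value.

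XBP1, whose mRNA is spliced by the sensor IRE1, stood at 95.6, 98.2 and 97.9 in DMSO and 97.8, 95.1 and 93.4 in SNDX-5613 libraries. The means were 97.2 ± 1.45 and 95.4 ± 2.22 (SD, n = 3 each, exact two-sided permutation p = 0.2), and the groups overlapped. A transcript with no symbol has a start within 1 kb of the XBP1 peak. ATF4, the factor translated when general translation is slowed, was at 93.9, 97.0 and 96.2 in DMSO and 95.3, 96.6 and 92.1 in SNDX-5613 libraries. That difference of -1.04 percentile points was smaller than the SD of either group (exact two-sided permutation p = 0.6, n = 3 each).

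DDIT3, also named CHOP, a factor linked to cell death under lasting ER stress, was the single member whose groups did not overlap. It stood at 94.7, 98.1 and 96.5 in DMSO and at 98.1, 98.4 and 98.6 in SNDX-5613 replicates 1, 2 and 3, with the lowest treated library (98.13) just above the highest control (98.05). The mean was 96.4 ± 1.69 in DMSO and 98.4 ± 0.260 in SNDX-5613 (SD, n = 3 each), a difference of 2.00 points with an exact two-sided permutation p of 0.1, the smallest that 3 against 3 libraries allow, and an adjusted p of 1 over all genes. Of 12790 genes, 1.25% had all 3 SNDX-5613 libraries above all 3 DMSO libraries and 8.38% had all 3 below. Among the members the counts were 1 of 10 above and 0 of 10 below, and groups that did not overlap in either direction made up 9.63% of all genes. SNDX-5613 replicate 3, where most promoters ranked lower, gave DDIT3 its highest percentile. Within 1 kb of this region (chr12:57520009-57521086) also lie a start of MBD6, a neighbour that runs the other way, and of a readthrough transcript. The peak therefore cannot be assigned to DDIT3 alone.

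The ER chaperones are given next. HSPA5, also named BiP, the central chaperone of the ER lumen that holds the stress sensors inactive, was at 95.6, 98.2 and 97.7 in DMSO and 96.7, 98.3 and 89.4 in SNDX-5613 libraries. Only the shallow library was low, and the means, 97.2 ± 1.35 and 94.8 ± 4.73 (SD, n = 3 each, exact two-sided permutation p = 0.7), differed by less than the SD of the treated group. The neighbouring transcript HSPA5-DT has a start within 1 kb of the HSPA5 peak. HSP90B1, the ER form of HSP90, was among the highest members, at 97.7, 97.6 and 98.0 in DMSO and 98.5, 99.0 and 97.2 in SNDX-5613 libraries (exact two-sided permutation p = 0.4, n = 3 each). Its treated libraries lay on both sides of the controls, with SNDX-5613 replicate 3 lowest.

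CALR encodes calreticulin, a chaperone that binds calcium and glycoproteins. It was at 93.7, 94.3 and 96.6 in DMSO and 96.4, 94.4 and 91.7 in SNDX-5613 libraries, with overlapping groups. PDIA4, a protein disulfide isomerase, was at 93.8, 96.7 and 97.1 in DMSO and 97.4, 96.9 and 92.1 in SNDX-5613 libraries, again with only SNDX-5613 replicate 3 below the controls. The differences of -0.68 points at CALR and -0.39 points at PDIA4 were smaller than the SD within groups (exact two-sided permutation p of 0.8 and 0.9, n = 3 each).

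Of the 2 genes of ER-associated degradation, HERPUD1, a membrane protein that helps assemble the degradation complex, was the highest member, at 98.2, 99.4 and 97.8 in DMSO and 99.2, 98.99 and 97.7 in SNDX-5613 libraries. Its means of 98.5 ± 0.817 and 98.6 ± 0.835 were nearly equal (SD, n = 3 each, exact two-sided permutation p = 1). SEL1L, the adaptor of the ubiquitin ligase HRD1, was at 95.3, 96.9 and 95.5 in DMSO and 97.1, 96.6 and 89.2 in SNDX-5613 libraries, where the last was the shallow library and the groups overlapped (exact two-sided permutation p = 0.9, n = 3 each).

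**Figure D2:**
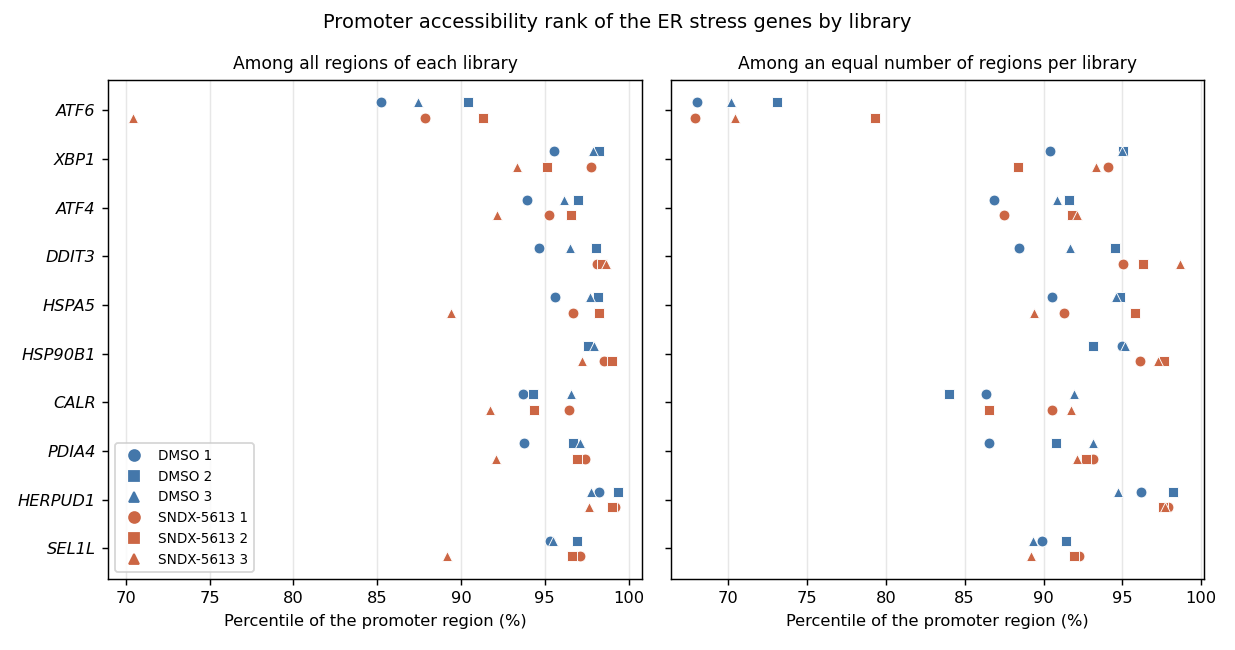
Promoter percentile of each member (x axis, %) in the 3 DMSO (blue) and 3 SNDX-5613 (orange) libraries, among all regions of the library on the left and among the 40568 strongest regions of each library on the right. On the left, SNDX-5613 replicate 3 is the lowest library for most members, and DDIT3 is the single gene whose treated libraries all lie above the controls; on the right, HSP90B1 joins it.

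Ranks among all regions depend on how many weak regions a list holds, so they were repeated among the 40568 strongest regions of each library. DDIT3 was then at 88.4, 94.5 and 91.7 in DMSO and 95.1, 96.3 and 98.6 in SNDX-5613 libraries. HSP90B1 was at 94.95, 93.2 and 95.2 in DMSO and 96.1, 97.6 and 97.2 in SNDX-5613 libraries. These 2 of 10 members had all treated libraries above the controls, where 6.59% of 12127 genes did, and 0 lay below, where 7.26% did. Over the 10 members the median difference changed from -0.86 to 1.74 points, and over all genes from -2.73 to -0.30. Without SNDX-5613 replicate 3 the medians were 0.79 and 0.20 points. The members' median thus changed sign both with the set of regions ranked and when the shallow library was left out. The cause was not tested. The differences of DDIT3 and HSP90B1 were positive in all 15 settings tried, but these settings were not independent. Promoter distances of 500 and 2000 bp, canonical starts and the replicate block returned the reported values. Ranked by fold enrichment, the groups of DDIT3 overlapped (exact two-sided permutation p = 0.2).

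Signal was then compared on a scale where the depth of each library had been removed. The pileup at each promoter summit, the number of fragments or extended reads that overlap it, was recovered from the peak lists and divided by a size factor per library. The pileup behind a member's value was 83 to 346 in the 5 deeper libraries and 17 to 63 in SNDX-5613 replicate 3. For DDIT3 the pileup of 63 there has an exact Poisson interval of 48.4 to 80.6 (95%), and for ATF6 the pileup of 17 has one of 9.90 to 27.2, which cover counting error only.

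On this scale DDIT3 showed the largest difference of the members. Its scaled pileup was 192, 227.4 and 209.9 in DMSO and 227.1, 239 and 279.6 in SNDX-5613 replicates 1, 2 and 3, so that 1 treated library lay just below the highest control. The difference was 0.24 on the log2 scale (SE 0.0949, 95% interval 0.05 to 0.44), or 1.18-fold, with a limma p of 0.0186 and an adjusted p of 0.315 over 12790 promoters. HSP90B1, at 215, 204 and 219 in DMSO and 228, 238.6 and 239.6 in SNDX-5613 libraries, had groups that did not overlap, where 9.05% of promoters lay above and 7.93% below. Its difference was 0.15 on the log2 scale (SE 0.0815, limma adjusted p = 0.504).

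The other 8 members had log2 differences between -0.10 at XBP1 and 0.12 at PDIA4, each with a 95% interval that included 0. XBP1 stood at 143, 167 and 165 in DMSO and 157, 134 and 151 in SNDX-5613 libraries. HSPA5 stood at 159, 183 and 181 in DMSO and 163, 186 and 151 in SNDX-5613 libraries, with a difference of -0.07 (SE 0.104). None of the 10 members passed an adjusted p of 0.05 by limma, where 1.22% of promoters did with higher and 0.109% with lower pileup, and 1 of 10 had an unadjusted p under 0.05, where 11.6% of promoters did. The median log2 difference was 0.07 over the members and -0.01 over all promoters. Intervals of the other 8 members reached from -0.32 at XBP1 to 0.37 at ATF6. On simulated libraries of this design the test missed most small changes, so a member that did not pass may still have changed.

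**Figure D3:**
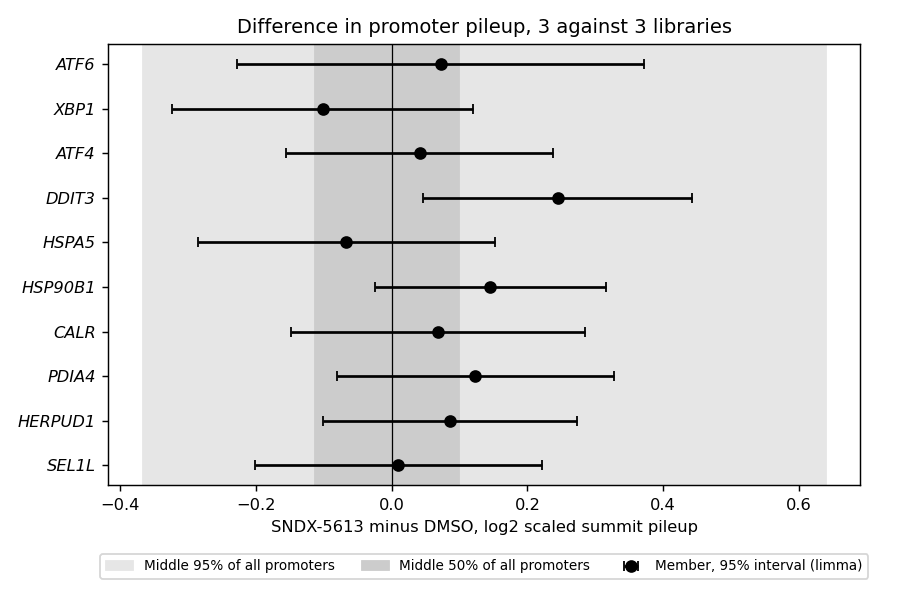
SNDX-5613 minus DMSO difference in log2 scaled summit pileup (x axis) for each member, as points with 95% intervals from limma over 3 against 3 libraries, on the middle 50% and middle 95% of all 12790 promoters (grey). In this fit the DDIT3 interval of 0.05 to 0.44 lies above 0, those of the other 9 members include 0, and all 10 points lie within the middle 95% of promoters.

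The direction of small differences depended on how libraries were scaled. When pileups were divided by the genome-wide background in place of the size factors, the median of all promoters moved from -0.01 to -0.14 on the log2 scale, the calls changed from 156 higher and 14 lower to 119 higher and 94 lower, and 6 members turned from positive to negative. The differences of DDIT3 and HSP90B1 were positive in all 13 settings, at 0.11 and 0.011 with the genome-wide background. In the reported fit 1 member, DDIT3, had an unadjusted limma p under 0.05. None of the 10 did without SNDX-5613 replicate 3 or without DMSO replicate 1. The same held with the genome-wide background, a pseudocount of 10 or log2 fold enrichment. In these fits 787 to 1842 of 12790 promoters had such a p.

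Accessible sites outside the main promoter peaks were then listed. Of the 46 sites, 17 lay within 1 kb of a start site of the gene and 13 of those had a peak in all 6 libraries. In all, 19 of 46 sites had a peak in all 6 libraries, where 20.1% of all sites did. Another 7 had one only in the 5 deeper libraries, where 16.0% of all sites did, and 12 in 1 library, where 36.2% did. These shares are not matched for distance to a start. Some of the 19 sites also lie within 1 kb of a start of a neighbouring gene. A site counted as gained if all treated libraries and no control had it, and as lost in the reverse case. By this rule 0 of the 46 sites were gained, where 0.147% of all sites were, and 0 were lost, where 1.18% were. ATF6, a long gene with many introns, had 13 sites, HSP90B1 had 8 and SEL1L had 1. In the authors' pooled consensus sets, 30 of the 46 sites lay in both, 3 in the DMSO set alone, 1 in the SNDX-5613 set alone and 12 in neither. The matching shares over all sites were not counted.

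**Figure D4:**
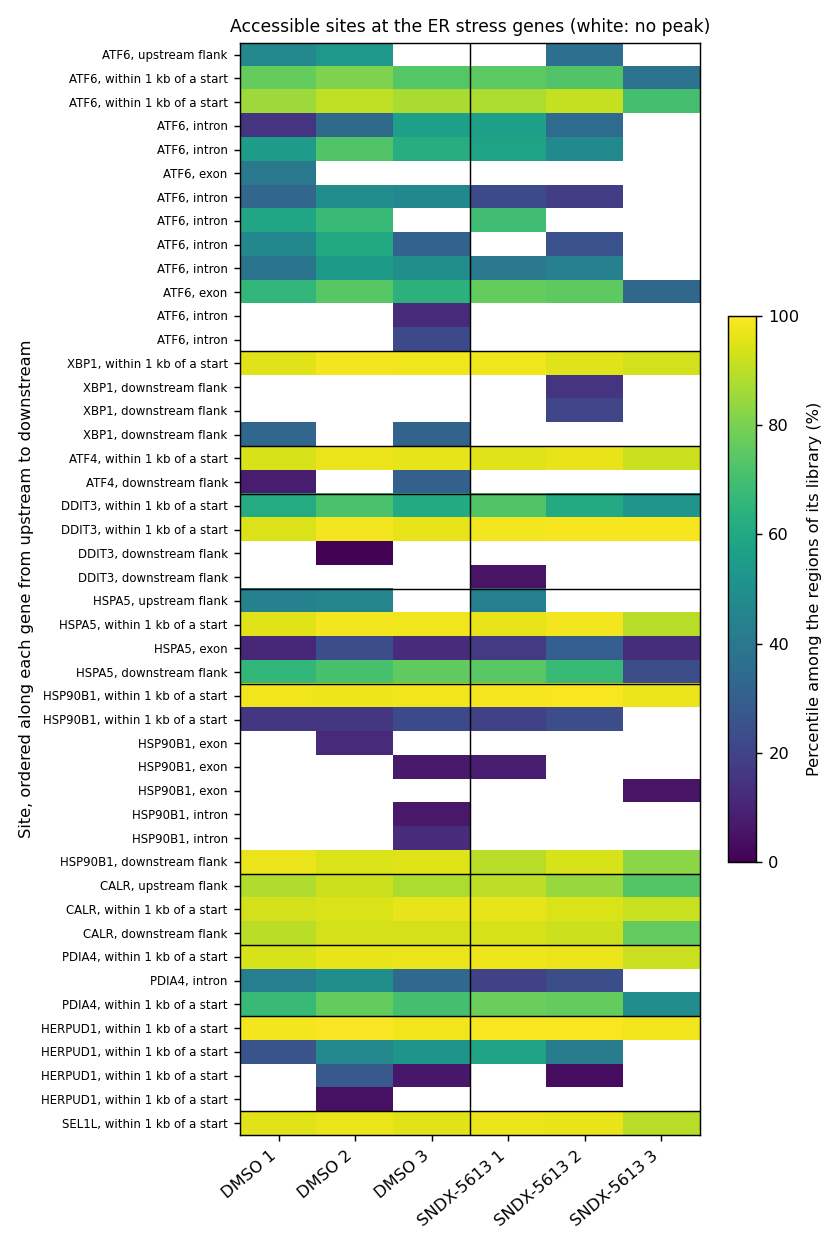
Percentile (colour, %) of each of the 46 accessible sites at the members in the 6 libraries, with white where a library had no peak; sites run from upstream to downstream within each gene. The yellow rows are the main promoter peaks, present in all 6 libraries, and most intronic sites are white in SNDX-5613 replicate 3.

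Among the 19 sites called in every library, the DDIT3 promoter was the 1 site with all treated libraries above the controls, where 0.997% of sites were, and 1 site lay below, where 7.68% were. That site (chr12:103956642-103957832) is in the downstream flank of HSP90B1, at the start of the neighbouring gene UQCC6, a factor for assembly of respiratory complex III. It stood at 97.2, 94.2 and 95.3 in DMSO and 89.2, 93.8 and 82.8 in SNDX-5613 libraries, the opposite direction to the HSP90B1 promoter in the scaled pileup. Its log2 difference in scaled pileup was -0.37 (SE 0.135, limma adjusted p = 0.171 over 33405 sites). By limma 0 of the 19 sites passed an adjusted p of 0.05, where 2.07% of sites did. The site at UQCC6 and the DDIT3 promoter, 2 of the 19, had an unadjusted p under 0.05, where 11.6% of promoters did. The share over all sites was not counted.

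To include sites missing from the shallow library, the 26 sites with a peak in each of the other 5 were compared over those 5. Of these, 3 had both treated libraries above the 3 controls, where 14.6% of sites did, and 3 had both below, where 8.99% did. The DDIT3 and HSP90B1 promoters and an exonic site of ATF6 (chr1:161962188-161962844) were above, the last at 66.1, 74.2 and 64.3 in DMSO and 76.3 and 75.2 in SNDX-5613 replicates 1 and 2. An intronic site of PDIA4 (chr7:149007613-149007849) was below, at 43.0, 49.6 and 34.3 in DMSO and 19.6 and 24.0 in SNDX-5613 replicates 1 and 2. So was an intronic site of ATF6 (chr1:161885090-161885463), at 33.1, 49.0 and 46.8 in DMSO and 22.6 and 18.2 in SNDX-5613 replicates 1 and 2, together with the site at UQCC6. At these intronic sites the shallow library had no peak, and 2 treated libraries against 3 allow no exact p under 0.1.

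The members were set beside 42 other genes of the ER stress response. A promoter peak was present in all 6 libraries at 41 of them, while DERL3, a component of ER-associated degradation, had one in 1 library only. Percentile groups overlapped at 35 of the 41. All treated libraries lay above the controls at 2 genes, where 1.25% of genes did, and below at 4, where 8.38% did. These counts depended on the ranking. Ranked by fold enrichment, 6 of the 41 lay above, where 6.54% of genes did, and 0 below, where 4.3% did. Without SNDX-5613 replicate 3, 8 lay above, where 13.5% of genes did, and 5 below, where 8.53% did. The median difference was -1.56 points over these genes, -0.86 over the members and -2.73 over all genes.

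The genes that lay above belong to different arms, and both also lay above when ranked by fold enrichment. OS9, a lectin that hands misfolded glycoproteins to degradation, was at 98.3, 99.2 and 98.4 in DMSO and 99.7, 99.7 and 99.8 in SNDX-5613 libraries. Its scaled pileup differed by 0.36 on the log2 scale (SE 0.0968, limma adjusted p = 0.0861), the lowest adjusted p of the 41 genes. EIF2S1, the translation factor phosphorylated under ER stress, was at 95.1, 95.2 and 95.3 in DMSO and 95.7, 97.0 and 96.3 in SNDX-5613 libraries (log2 difference 0.18, limma adjusted p = 0.548).

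The 4 genes below were folding factors and a degradation gene, and none of them lay below when ranked by fold enrichment. HYOU1, an HSP70-like chaperone, had means of 99.4 ± 0.140 and 98.9 ± 0.135, and MANF, a secreted ER protein, 96.9 ± 0.50 and 95.7 ± 0.741 in DMSO and SNDX-5613 (SD, n = 3 each). ERO1B, an oxidase that drives disulfide formation, had means of 99.0 ± 0.571 and 97.4 ± 1.147, and DERL2, a channel component of degradation, 96.9 ± 0.576 and 93.97 ± 2.85 (SD, n = 3 each). For all 6 genes the exact two-sided permutation p was 0.1, the smallest possible with n = 3 each, and adjusted p was 1. By limma 0 of the 41 genes passed an adjusted p of 0.05, and 2 had an unadjusted p under 0.05, where 11.6% of promoters did. They were OS9 and ERN1, the sensor also named IRE1, whose log2 difference was -0.28 (adjusted p = 0.426).

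Levels of these genes spanned a wider range than those of the members. Averaged over the 6 libraries, CANX, SDF2L1 and OS9 were highest, at percentiles of 99.3, 99.2 and 99.2, and TRIB3, ERO1A and TXNDC5 were lowest, at 75.4, 81.7 and 83.5. By role, and beside 1.25% of all genes above and 8.38% below, 0 of 8 sensors and factors had groups that did not overlap, 3 of 14 folding genes lay below, 1 of 8 degradation genes lay above and 1 below, and 1 of 11 genes of the translation and death arm lay above.

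**Figure D5:**
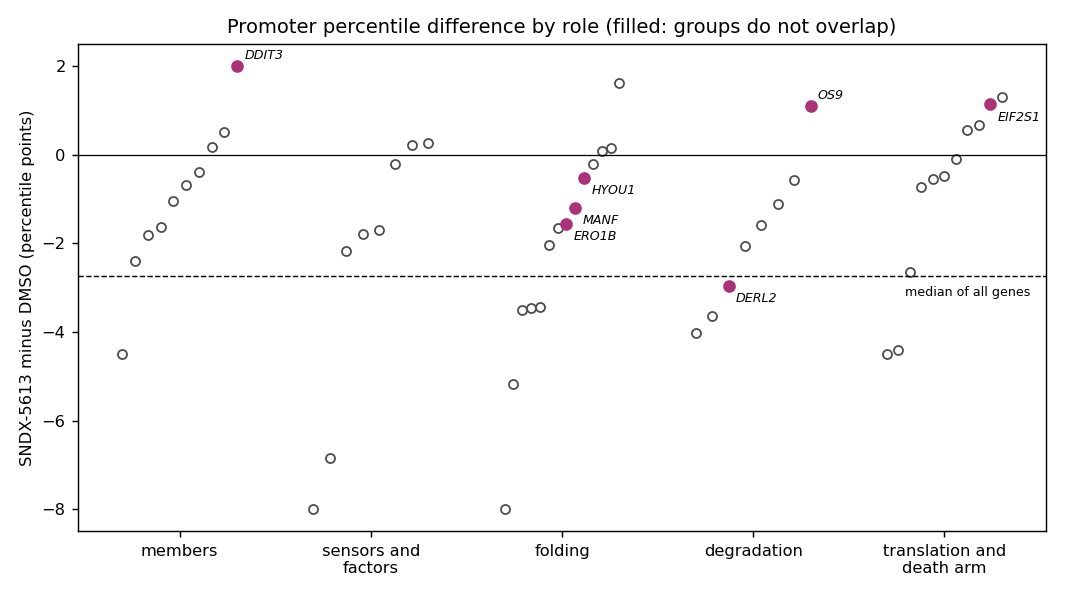
SNDX-5613 minus DMSO difference of the mean promoter percentile (y axis, percentile points) for the 10 members and 41 other ER stress response genes by role, with filled points where the 3 libraries of each group did not overlap and a dashed line at the median of all genes, -2.73. DDIT3, OS9 and EIF2S1 are the filled points above 0.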

How the data were processed

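Per the labels, the authors' processing named Trim Galore 0.6.7, Bowtie2 2.3.4.1, Picard 2.20.0, SAMtools, deepTools 3.5.4, MACS2 and hg38. The study's methods mark duplicates with Picard and describe the pipeline as close to that of its CUT&RUN data, for which MACS2 called summits at a q of 0.05. Whether that setting was kept for ATAC-seq, any Tn5 offset and whether marked duplicates were dropped were not given in the sources used here. The deposited peak lists, called by the authors in each library without pooling, give per summit a fold enrichment over local background (a ratio) and a −log10 p and −log10 q. Of the deposited consensus sets, whose score is a −log10 p, only regions were used.

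Summits sharing a region were merged and the strongest kept. Promoter peaks had the summit within 1 kb of any start of the gene in GENCODE release 44. Fold and p were solved together for the whole-number pileup and its background (100% of summits solved in each library), since MACS2 derives both from them. Log2 pileups, divided by median-of-ratios size factors, were tested with limma 3.58.1 across all promoters, with no count model, and Benjamini-Hochberg adjustment; limma weighs the shallow library like the others. The design, test and thresholds were checked on simulated data, where most small changes were missed. For percentiles and distances the exact permutation test was two-sided. Sites were regions of the 6 libraries merged at an overlap of at least 1 bp. Alternatives were ranking by fold, equal numbers of regions, promoter distances of 500 and 2000 bp, canonical starts, −log10 q of at least 3, other scalings, a pseudocount of 10, flanks of 2 and 10 kb, cover of 50%, the replicate block and leaving out each library.

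The members and lists were chosen with earlier results of these data known. All 10 members were described, and other genes of the response were named if their groups did not overlap, if they had the 3 highest or 3 lowest mean percentiles, or if a promoter peak was missing. ERN1 was named after its values were seen, and the liver, keratin and VIM genes were added to check the cell line. RefSeq windows were matched by symbol to 10 of 10 members, 39 of 42 other genes and 15345 of 20007 protein-coding genes.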

Additional observations from a re-analysis of the deposited data

How the results depend on the processing

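DDIT3 and HSP90B1 kept a positive difference under every setting tried, 15 for the percentile and 13 for the scaled pileup. These settings were not independent: other promoter distances, canonical starts and the replicate block returned the reported percentile differences. By limma 0 of 10 members passed an adjusted p of 0.05 in any of 12 fits across promoters. Promoter peak presence, gained sites and the number of members with a CCAAT box did not move by over 1.5 times under the alternatives run. The low depth of SNDX-5613 replicate 3 limits weak sites most.

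Ranked by fold enrichment, percentile differences turned positive at HSPA5 (1.56), XBP1 (0.996), PDIA4 (3.62), CALR (4.95), SEL1L (3.06) and ATF4 (3.19). The median over the members was 3.41. HSP90B1 was then the 1 member whose groups did not overlap, where 6.54% of genes lay above and 4.3% below. Those of DDIT3 overlapped. Among promoter regions alone, differences turned positive at PDIA4 (2.504) and CALR (1.72), with a median of 0.79. There 2 members had groups that did not overlap, both above, where 387 of 12790 genes lay above and 881 below. At equal numbers of regions, differences turned positive at PDIA4 (2.49), CALR (2.199), SEL1L (0.935), ATF4 (0.711) and ATF6 (2.11). The median was 1.74, and 2 members had groups that did not overlap. The cause was not tested.

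Scaled by the genome-wide background, the log2 difference turned negative at PDIA4 (-0.011), CALR (-0.066), HERPUD1 (-0.049), SEL1L (-0.12), ATF4 (-0.093) and ATF6 (-0.062). It did so with a pseudocount of 10 at SEL1L (-0.0085) and ATF4 (-0.0103), and across all sites at SEL1L (-0.038) and ATF4 (-0.0063). With log2 fold enrichment it turned positive at HSPA5 (0.052) and XBP1 (0.036) and negative at ATF6 (-0.0047). The number of promoters called by limma was 170 as reported, 93 after quantile normalisation, 213 with the genome-wide background and 0 on log2 fold enrichment, where 787 had an unadjusted p under 0.05. Across all sites it was 690 of 33405.

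Leaving out 1 library at a time gave 92 to 262 called promoters, the most without SNDX-5613 replicate 3, and 1 to 2 members with groups that did not overlap. Without SNDX-5613 replicate 3 the 2 were DDIT3 and HSP90B1, both above, where 13.5% of genes lay above. Without DMSO replicate 1 or SNDX-5613 replicate 1 they were DDIT3, above, and XBP1, below. In these 2 settings 1.68% and 1.83% of genes lay above, and 19.0% and 24.5% below. The median percentile difference over the members ranged from -1.67 to 0.79, the number of other ER stress genes with groups that did not overlap from 7 to 13 (13 without SNDX-5613 replicate 3, where 13.5% of all genes lay above and 8.53% below, and 12 without SNDX-5613 replicate 1, where 1.83% lay above and 24.5% below), and lost sites from 0 to 2 (2 without DMSO replicate 2). The share of all sites lost without DMSO replicate 2 was not counted. Percentile differences ranged from -4.12 to 0.307 at HSPA5, -1.43 to 1.30 at PDIA4, -1.81 to 0.540 at CALR, -0.17 to 0.648 at HERPUD1, -3.02 to 0.931 at SEL1L, -1.99 to 0.224 at ATF4 and -8.56 to 1.90 at ATF6. Log2 differences ranged from -0.15 to 0.0013 at HSPA5, -0.025 to 0.056 at SEL1L, -0.0115 to 0.11 at ATF4 and -0.048 to 0.14 at ATF6. Group differences in the distance from summit to nearest GENCODE start ranged from -45.7 to 37.8 bp at HSPA5 and -0.17 to 26.8 bp at DDIT3. They ranged from -2.0 to 58.0 bp at PDIA4, -4.67 to 28.3 bp at CALR, -32.7 to 15.3 bp at SEL1L and -11.5 to 2.5 bp at ATF6. At HSP90B1 they ranged from -5.83 to 57.2 bp. There the nearest start differed between libraries, so these values do not give the movement of the summit.

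By the study's general account, libraries with the same replicate number may share a dish, though no source states that the numbers mark it. Their deviations from the group means had correlations of 0.016, -0.019 and 0.028, and the reported fits leave the pairing out. With the replicate block, limma called 165 promoters and 0 members, so the block changed no call of a member. DDIT3 was the 1 member with the same sign in all 3 pairs (exact sign-flip test p = 0.25, the smallest that 3 pairs allow). The share of all genes with the same sign in all 3 pairs was not counted.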
